A study of Mus musculus with 10 samples.

Results

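The 10 genes of the circadian clock followed here in endothelial cells of mouse ear skin are Arntl, Nr1d1, Nr1d2, Per1, Per2, Per3, Cry1, Cry2, Dbp and Tef. They were chosen by name as core parts or direct outputs of the clock, and are 10 of the 46517 Ensembl genes in the 9 count tables. All 10 passed the filter on low counts in every comparison given here. Single cells had been sorted by flow cytometry with antibodies to Podoplanin and CD31 and sequenced as full-length cDNA (Smart-Seq2), in a study of the growth of lymphatic malformations. The cells fall into lymphatic endothelial cells (LECs), which line the vessels that drain tissue fluid, and blood endothelial cells (BECs), which line blood capillaries and larger blood vessels.

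Both classes came from the same plates of the same mice. The 5 mutant mice carried Pik3caH1047R;Cdh5-CreERT2 with Cre (Cre+) and were given 4-hydroxytamoxifen (4-OHT) on the ear at 3 weeks of age. Pik3caH1047R is an oncogenic form of the PI3K catalytic subunit, here a transgene at the Rosa26 locus that Cre switches on, and Cdh5 drives Cre in endothelial cells of all vessels. Control 1 was a separately bred wild-type C57BL/6J mouse with no treatment, and control 2 was a Cre- littermate from the mutant line given 4-OHT. All 7 mice were 5 weeks old and of mixed sex per the methods. Thus the 2 controls differed from each other in breeding line and treatment, and only control 2 matched the mutants in both. The methods give a C57BL/6J background for all mice. The labels give no hour of collection. Mutants 1 to 4 were on plates numbered 323 to 332, mutant 5 on plates 891 and 892, control 1 on plate 895 and control 2 on plate 901. Another control was not analysed here.

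Cells were taken as LECs where the summed level of Prox1, Flt4 and Mmrn1 was at least 300 CPM, counts scaled to a fixed total per cell, and above that of Flt1, Emcn and Podxl, and as BECs in the reverse case. A plate gave 175 to 191 LECs and 143 to 184 BECs. Reads were summed per mouse and class, to between 38402388 and 194353210 reads, and tests were made over mice. In such sums, fewer cells expressing a gene and less RNA per cell cannot be told apart. Markers that the choice of cells did not use followed the classes: 5 LEC markers (Lyve1, Pdpn, Reln, Ccl21a and Itga9) summed to 3582 to 4984 CPM in LECs and 117 to 503 CPM in BECs, and 5 BEC markers (Cd34, Ly6c1, Cd36, Sox17 and Vwf) to 5196 to 6574 CPM in BECs and 131 to 705 CPM in LECs.

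In the clock, CLOCK and the Arntl product BMAL1 bind E-box sequences and switch on the Per and Cry genes, whose proteins return to the nucleus and repress that same pair. Nr1d1, Nr1d2, Dbp and Tef are switched on through the same kind of site, and the Nr1d1 and Nr1d2 products, the REV-ERB receptors, repress Arntl through ROR elements. In most tissues with a running clock Arntl transcripts are therefore high when Nr1d1 and Dbp transcripts are low. Endothelial cells of vessel walls are known to hold such a clock, and the hour at which a tissue is taken is known to set the level of these transcripts.

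Promoter windows of 250 bases before to 50 bases after the RefSeq start site (build GRCm38.p6) were held for 9 of the 10 genes, with 12 windows in all. Capitals mark, on either strand, the E-box CACGTG, the related site CACGTT, the D-box TTATGTAA or TTACGTAA that Dbp and Tef products bind, and the ROR element TAGGTCA or TGGGTCA. The E-box was found in windows of 3 of the 9 genes and in 7.15% of 32851 promoter windows, CACGTT in 3 genes and in 4.68% of windows, the D-box in 1 gene and in 1.06%, and the ROR element in 1 gene and in 6.45%. The counts are per gene and the shares per window, and Tef, Per1 and Arntl had more than 1 window each, so the units are not alike. A match is a description of the letters and not a measured site. No marked matches overlapped each other. The 6 windows shown each hold a match and stand for the arms of the loop: Nr1d1 (chr11:98775328-98775627, minus strand), Per1 (chr11:69098699-69098998, plus strand), Per3 (chr4:151044616-151044915, minus strand), Cry1 (chr10:85185005-85185304, minus strand), Tef (chr15:81811164-81811463, plus strand) and Arntl (chr7:113207261-113207560, plus strand).
Nr1d1: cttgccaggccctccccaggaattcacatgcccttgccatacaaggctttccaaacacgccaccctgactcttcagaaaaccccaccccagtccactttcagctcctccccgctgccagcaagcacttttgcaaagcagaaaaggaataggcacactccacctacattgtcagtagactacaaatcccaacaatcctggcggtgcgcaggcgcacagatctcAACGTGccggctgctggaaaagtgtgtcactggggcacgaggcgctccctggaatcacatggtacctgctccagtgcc
Per1: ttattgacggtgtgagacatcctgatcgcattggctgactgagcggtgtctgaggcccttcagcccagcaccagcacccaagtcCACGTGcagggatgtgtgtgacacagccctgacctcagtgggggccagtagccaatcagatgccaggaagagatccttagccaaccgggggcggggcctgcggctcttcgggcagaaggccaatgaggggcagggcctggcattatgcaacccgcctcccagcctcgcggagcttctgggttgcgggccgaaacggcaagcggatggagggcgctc
Per3: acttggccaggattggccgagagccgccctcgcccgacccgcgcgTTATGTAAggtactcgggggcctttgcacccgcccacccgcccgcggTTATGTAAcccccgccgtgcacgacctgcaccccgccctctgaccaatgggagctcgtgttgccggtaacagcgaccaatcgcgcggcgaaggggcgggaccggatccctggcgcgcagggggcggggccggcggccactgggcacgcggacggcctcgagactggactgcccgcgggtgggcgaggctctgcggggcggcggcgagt
Cry1: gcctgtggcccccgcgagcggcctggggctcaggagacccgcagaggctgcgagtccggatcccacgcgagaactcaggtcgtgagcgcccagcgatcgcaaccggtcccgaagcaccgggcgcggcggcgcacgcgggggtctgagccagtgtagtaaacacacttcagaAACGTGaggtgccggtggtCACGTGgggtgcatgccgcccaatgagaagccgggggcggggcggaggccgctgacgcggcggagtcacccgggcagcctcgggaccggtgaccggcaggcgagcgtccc
Tef: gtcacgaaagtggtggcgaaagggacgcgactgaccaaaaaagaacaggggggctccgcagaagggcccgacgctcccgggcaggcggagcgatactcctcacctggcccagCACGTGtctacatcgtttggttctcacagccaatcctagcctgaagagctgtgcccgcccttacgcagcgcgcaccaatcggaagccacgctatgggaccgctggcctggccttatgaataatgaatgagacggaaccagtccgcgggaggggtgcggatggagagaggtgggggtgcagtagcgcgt
Arntl: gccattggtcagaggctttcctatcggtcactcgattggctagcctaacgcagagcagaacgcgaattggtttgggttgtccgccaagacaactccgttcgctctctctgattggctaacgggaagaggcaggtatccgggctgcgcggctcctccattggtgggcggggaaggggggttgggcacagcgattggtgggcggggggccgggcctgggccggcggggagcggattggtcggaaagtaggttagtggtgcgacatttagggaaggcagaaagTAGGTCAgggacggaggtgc
The match in Nr1d1 is CACGTT on the opposite strand, printed as its reverse complement, 28 bases before the start site. Per1 has an E-box 166 bases before its start, Tef has one at 138 bases, and Cry1 has an E-box at 60 bases beside a CACGTT, also on the opposite strand, at 79 bases. The Per3 window holds a pair of D-boxes, 205 and 158 bases before the start. Arntl alone held a ROR element, 30 bases after the start. None of the letters searched were found in the windows of Nr1d2 and Dbp.

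Arntl, the activating arm of the loop, lies on chromosome 7 (positions 113207465 to 113314126, plus strand, GENCODE vM21). Its level in BECs was 30.3, 32.4, 85.5, 72.9 and 50.4 CPM in mutants 1 to 5, 7.54 CPM in control 1 and 77.2 CPM in control 2. Control 1 stood alone at the low end, 0.10 times the level of control 2, while control 2 lay within the range of the mutants. In LECs Arntl measured 13.9, 36.1, 41.4, 49.6 and 46.7 CPM in mutants 1 to 5, 33.0 CPM in control 1 and 47.6 CPM in control 2. Here the lowest mouse was mutant 1, and control 1 lay among the mutants, at 0.69 times control 2.

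Nr1d1 encodes REV-ERB alpha, the repressor of Arntl, and lies on chromosome 11 (98767932 to 98775333, minus strand). LECs held 147, 205, 132, 60.4 and 90.7 CPM in mutants 1 to 5, 609.6 CPM in control 1 and 218 CPM in control 2. Both controls lay above all mutants, and control 1 was 2.80 times control 2. In BECs the levels were 375, 361, 299.6, 188 and 152 CPM in mutants 1 to 5, 812 CPM in control 1 and 219.8 CPM in control 2. Control 1 was again the highest of the 7 mice, but control 2 lay inside the mutant range. Of the exon bases of Nr1d1, 8.55% overlap Thra on the other strand, and the libraries do not keep strand.

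Nr1d2, which encodes REV-ERB beta (chromosome 14, 18204054 to 18239127, minus strand), was highest in control 1 in both classes, at 139 CPM in LECs and 135 CPM in BECs. The mutants spanned 39.1 to 84.6 CPM in LECs and 40.6 to 92.1 CPM in BECs. Control 2 was the lowest LEC sample at 36.3 CPM and lay inside the mutant range in BECs at 61.5 CPM.

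Among the genes whose products repress CLOCK and BMAL1, Per1 (chromosome 11, 69095217 to 69109960, plus strand) in LECs measured 45.0, 129, 63.9, 78.0 and 61.2 CPM in mutants 1 to 5, 195 CPM in control 1 and 49.4 CPM in control 2. The BEC levels were 59.7, 202, 56.7, 42.7 and 95.6 CPM in mutants 1 to 5, 206 CPM in control 1 and 32.2 CPM in control 2. Control 1 and mutant 2 were the high mice in both classes, and control 2 was the lowest BEC sample. Per3 (chromosome 4, 151003652 to 151044665, minus strand) in LECs measured 44.8, 22.5, 18.5, 17.8 and 17.1 CPM in mutants 1 to 5, 90.2 CPM in control 1 and 58.5 CPM in control 2. Both controls lay above all 5 mutants there, with mutant 1 nearest. In BECs, where the levels were 58.7, 35.7, 21.3, 21.5 and 40.5 CPM in mutants 1 to 5, 130.2 CPM in control 1 and 45.2 CPM in control 2, control 2 lay between mutants 1 and 5.

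Per2 (chromosome 1, 91415982 to 91459324, minus strand) was the scarcest of the 10 genes. In BECs it measured 10.1, 3.65, 2.70, 4.24 and 8.44 CPM in mutants 1 to 5, 56.3 CPM in control 1 and 1.97 CPM in control 2. Control 1 was 28.5 times control 2, which was the lowest mouse. In LECs the mutants spanned 0.516 to 8.07 CPM, against 14.4 CPM in control 1 and 3.20 CPM in control 2.

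Cry1 (chromosome 10, 85131700 to 85185064, minus strand) had the narrowest range of the Per and Cry genes in BECs, from 22.5 CPM in control 2 to 73.5 CPM in control 1. In LECs it went from 21.3 CPM in mutant 2 to 63.3 CPM in control 1. Cry2 (chromosome 2, 92403646 to 92434043, minus strand) in BECs measured 109, 109, 83.7, 109 and 80.9 CPM in mutants 1 to 5, 187 CPM in control 1 and 50.9 CPM in control 2. The mutants lay close together between the controls. In LECs Cry2 went from 46.9 CPM in mutant 5 to 127 CPM in control 1, and control 2, at 50.9 CPM in LECs and 50.9 CPM in BECs, was level between the classes.

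Dbp and Tef encode activators of the PAR bZIP family, which carry the clock's phase to target genes through D-boxes. Dbp (chromosome 7, 45705088 to 45710203, plus strand) in BECs measured 141, 93.8, 41.2, 34.0 and 32.8 CPM in mutants 1 to 5, 424 CPM in control 1 and 47.0 CPM in control 2. In LECs it measured 88.0, 59.3, 40.8, 21.2 and 23.8 CPM in mutants 1 to 5, 172 CPM in control 1 and 44.3 CPM in control 2. The order of the mice was nearly the same in both classes: control 1, then mutant 1, then mutant 2, with the other 4 mice at the low end. Of the exon bases of Dbp, 18.0% overlap Sphk2 on the other strand, so that part of its reads cannot be told apart from those of Sphk2. Tef (chromosome 15, 81802421 to 81826863, plus strand) in BECs measured 132, 103, 77.8, 72.1 and 109.8 CPM in mutants 1 to 5, 216 CPM in control 1 and 31.4 CPM in control 2. Control 1 was the highest and control 2 the lowest, with all mutants between. In LECs the mutants spanned 47.2 to 92.0 CPM, against 183 CPM in control 1 and 72.5 CPM in control 2.

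Control 1 was thus the highest of 7 mice for 9 of the 10 genes in LECs and for 9 in BECs, against 18.9% of all genes tested in LECs and 19.4% in BECs. It exceeded control 2 by more than 1 on the log2 scale, at log2(CPM + 1), for 8 of 10 genes in LECs and 9 of 10 in BECs, where 5.78% and 7.72% of the 9887 genes of moderate to high level did so. The median difference over the 10 genes was 1.40 in LECs and 1.87 in BECs, against -0.01 and 0.02 over all those genes. Arntl was the exception, at -0.52 in LECs and -3.20 in BECs. Control 2 lay inside the range of the mutants for 7 of 10 genes in LECs and 5 in BECs, against 46.2% and 47.1% of all genes tested. With 1 mouse each, breeding line, treatment, hour of collection, plate and animal cannot be told apart between the controls.

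To set the genes beside each other, levels were divided by the gene length in the files and scaled to a fixed total in each sample, as TPM values. Per length, Nr1d1 was the most abundant, at 180 ± 160 TPM in LECs (a mean with SD, n = 7 mice) and 298 ± 192 TPM in BECs. Dbp followed at 58.1 ± 47.8 TPM in LECs and 105 ± 126 TPM in BECs. Per1, Nr1d2, Arntl, Cry1, Cry2 and Tef formed a middle group at means of 28.6 to 42.1 TPM in LECs and 34.7 to 47.1 TPM in BECs, and neighbours within it differed by less than their SD. The gaps between Dbp and Per1 in both classes and between Nr1d1 and Dbp in LECs were also smaller than the larger SD. Per3 was at 10.5 ± 7.54 TPM in LECs and 13.8 ± 10.2 TPM in BECs, and Per2 was lowest at 2.85 ± 2.05 and 5.64 ± 8.77 TPM. The length of Arntl in the files is 2904 bases, against 7523 exon bases in GENCODE vM21, so its place in this order depends on the gene model.

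Comparing the classes within mice asks whether LECs and BECs differ in clock gene level. Cry2, Nr1d1 and Dbp were lower in LECs. The difference of log2(CPM + 1) was negative in each of the 7 mice for all 3 genes, but in control 2 it was close to 0, at -0.0013 for Cry2, -0.015 for Nr1d1 and -0.083 for Dbp, and so was Dbp in mutant 3 at -0.013. By edgeR's quasi-likelihood test with the mouse as a block and Benjamini-Hochberg adjustment over 17593 genes, the log2 difference of LECs minus BECs was -0.59 for Cry2 (SE 0.11, adjusted p = 0.0031). Nr1d1 differed by -0.90 (SE 0.19, adjusted p = 0.0067). Dbp differed by -0.57 (SE 0.15, adjusted p = 0.0195 by the same edgeR test), which became -0.48 with an adjusted p = 0.0654 when only the first plate of each mouse was used. These are 3 of 10 genes called, all lower in LECs, where 12.4% of genes were called lower and 26.4% in either direction. The other 7 genes were between -0.49 (Per2) and -0.03 (Cry1 and Per1) and were not called. Without control 2, Per3 and Tef were called too, giving 5 genes.

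A second question was whether the mice differed from each other in the same way in both classes. For this, differences among all 7 mice were tested against the spread that LECs and BECs of a mouse did not share, and the size of a difference is given as the gap between the highest and the lowest mouse on the log2 scale. Dbp spanned 3.36 (adjusted p = 0.0051, edgeR's quasi-likelihood F test with Benjamini-Hochberg adjustment). By that edgeR test Nr1d1 spanned 2.69 (adjusted p = 0.0299), Per3 2.46 (adjusted p = 0.0268) and Per1 2.34 (adjusted p = 0.0392). Nr1d2 spanned 1.79 and Cry2 1.62 (edgeR adjusted p = 0.0403 and 0.0318). Thus 6 of 10 clock genes differed between mice, where 2.89% of 17593 genes did. At an unadjusted p under 0.05 it was 9 of 10 against 22.2%, and by DESeq2 9 of 10 against 24.7%. Per2 spanned 4.42, Tef 1.93, Cry1 1.44 and Arntl 1.56 without passing (edgeR adjusted p = 0.0924, 0.133, 0.207 and 0.408). The median span was 2.13 over the clock genes and 1.27 over all genes. Without control 1 these medians were 1.37 and 1.13, and the span of Dbp was 2.05, that of Nr1d1 1.36, that of Per3 1.39 and that of Cry2 0.85. The number called was 1 without control 1, without mutant 2 or without mutant 3, 2 without mutant 1, 3 without mutant 5 or without control 2, and 6 without mutant 4. Dbp was called in each of 14 alternative analyses, with adjusted p of at most 0.0414 (edgeR or DESeq2). Such calls were not particular to the clock genes. With all 7 mice edgeR also called 6 of 14 immediate-early and dissociation genes and 4 of 7 cell-cycle genes, from lists given further below. Their median spans were 2.67 and 5.09. The 7 mice include both genotypes, so a difference between mutants and controls counts in this test.

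The same test within the 5 mutants alone compares mice of 1 genotype and treatment. None of the 10 genes was called by edgeR after adjustment, where 0.0281% of 17799 genes were, 5 in number. At an unadjusted p under 0.05 it was 7 of 10 genes against 11.2% of all genes, and by DESeq2 7 of 10 against 9.17%. The span was 2.05 for Dbp (edgeR unadjusted p = 8.6e-05, adjusted p = 0.114), 1.69 for Per1, 1.56 for Arntl, 1.38 for Nr1d1, 1.38 for Per3 and 1.17 for Nr1d2. Per2 had the widest span, of 2.42 (edgeR adjusted p = 0.532), and Tef, Cry2 and Cry1 the narrowest, of 0.79, 0.59 and 0.28. The median over the clock genes was 1.38 against 0.86 over all genes, and without mutant 1 it was 0.85 against 0.77. Mutants 1 and 2 were the high Dbp mice and mutants 4 and 5 the low ones, in LECs and in BECs.

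The agreement between the classes was also measured gene by gene, as the correlation of log2(CPM + 1) in LECs with that in BECs over the 7 mice. For Dbp Pearson's r was 0.968 (exact permutation p = 0.000397) and Spearman's rho 0.964 (exact permutation p = 0.00278). Over 18153 genes the adjusted p of Dbp was 0.126, and r was 0.948 without the 2 mice farthest from the median. Cry2, Per3, Nr1d1, Nr1d2 and Per1 had r of 0.880, 0.866, 0.857, 0.829 and 0.829, with exact permutation p of 0.00893, 0.00694, 0.0183, 0.0200 and 0.0266. Their Spearman's rho was 0.786, 0.714, 0.714, 0.679 and 0.571, with exact permutation p of 0.0480, 0.0881, 0.0881, 0.110 and 0.200. The r of Per1 fell to 0.0653 without the 2 farthest mice and so rested on them. Per2 had r = 0.730, Tef 0.570, Cry1 0.490 and Arntl 0.434, none below an exact permutation p of 0.05. In all, 6 of 10 genes had an unadjusted p under 0.05 against 16.6% of genes, and none of the 10 passed after adjustment.

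The median r of the clock genes was 0.829, and the median over all genes was 0.335. All 10 clock genes lay above that overall median. Without the 2 farthest mice the medians were 0.628 and 0.211, and without control 1 they were 0.663 and 0.334. Leaving out control 1 moved Cry1 from 0.490 to -0.25 and Tef from 0.570 to 0.0660, while Arntl went from 0.434 to 0.721. Within the 5 mutants the median r was 0.726 for the clock genes and 0.242 for all genes, given as values with no test, with Dbp at 0.955, Cry2 at 0.953 and Cry1 at -0.57. LECs and BECs of a mouse came from the same plates, so what they share can be of the plate as well as of the mouse.

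Arntl is known to peak opposite to Nr1d1 and Dbp, while Cry1 is known to peak later than the Per genes and nearer to Arntl. Each of the other 9 genes was set against Arntl over the 7 mice within a class. In BECs all 9 correlations were negative, with a median r of -0.848. All 9 had an exact permutation p under 0.05 before adjustment, where 5.34% of 18152 genes did, and the lowest adjusted p was 0.866. For Dbp in BECs r was -0.945 (exact permutation p = 0.00774) and rho -0.679 (exact permutation p = 0.110). By Spearman's rho only Per2, Tef and Per1 were under 0.05 in BECs (exact permutation p = 0.0238, 0.0238 and 0.0480). Cry1 had a rho of -0.50 (exact permutation p = 0.267). All 9 correlations share the same Arntl values, in which control 1 was the lowest mouse. The median r was -0.712 without the 2 mice farthest in Arntl and -0.657 without control 1, with all 9 still negative in the latter case. In LECs the median r was -0.375 and 8 of 9 were negative, Per1 being the exception at 0.152. The LEC median was -0.524 without the 2 mice farthest in Arntl and -0.440 without control 1, with 8 of 9 still negative in the latter case. Without control 1, Dbp had r of -0.814 in LECs and -0.823 in BECs, while Per1 had 0.338 and -0.674. With all 7 mice none of the 9 had an exact permutation p under 0.05 by Pearson's r in LECs, against 3.05% of genes. Dbp had r = -0.607 there (exact permutation p = 0.161). By Spearman's rho Dbp, at -0.857, and Tef, at -0.786, were under 0.05 in LECs (exact permutation p = 0.0238 and 0.0480). Of all genes, 50.1% were negative against Arntl in BECs and 49.3% in LECs.

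The gap between Dbp and Arntl puts both arms of the loop on 1 scale, as a difference of log2(CPM + 1) within a mouse. In LECs it was 2.57, 0.70, -0.02, -1.19 and -0.94 in mutants 1 to 5, 2.35 in control 1 and -0.10 in control 2. The BEC values were 2.18, 1.50, -1.04, -1.08 and -0.61 in mutants 1 to 5, 5.64 in control 1 and -0.71 in control 2. The 3 highest mice in both classes were mutants 1 and 2 and control 1. With Nr1d1 in place of Dbp the gap was positive in all mice, so its sign depends on the gene taken. That gap was 3.31, 2.47, 1.65, 0.28 and 0.94 in LECs of mutants 1 to 5, 4.17 in control 1 and 2.17 in control 2, and 3.59, 3.44, 1.80, 1.35 and 1.58 in BECs of mutants 1 to 5, 6.57 in control 1 and 1.50 in control 2. The 3 highest mice were the same.

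**Figure D1:**
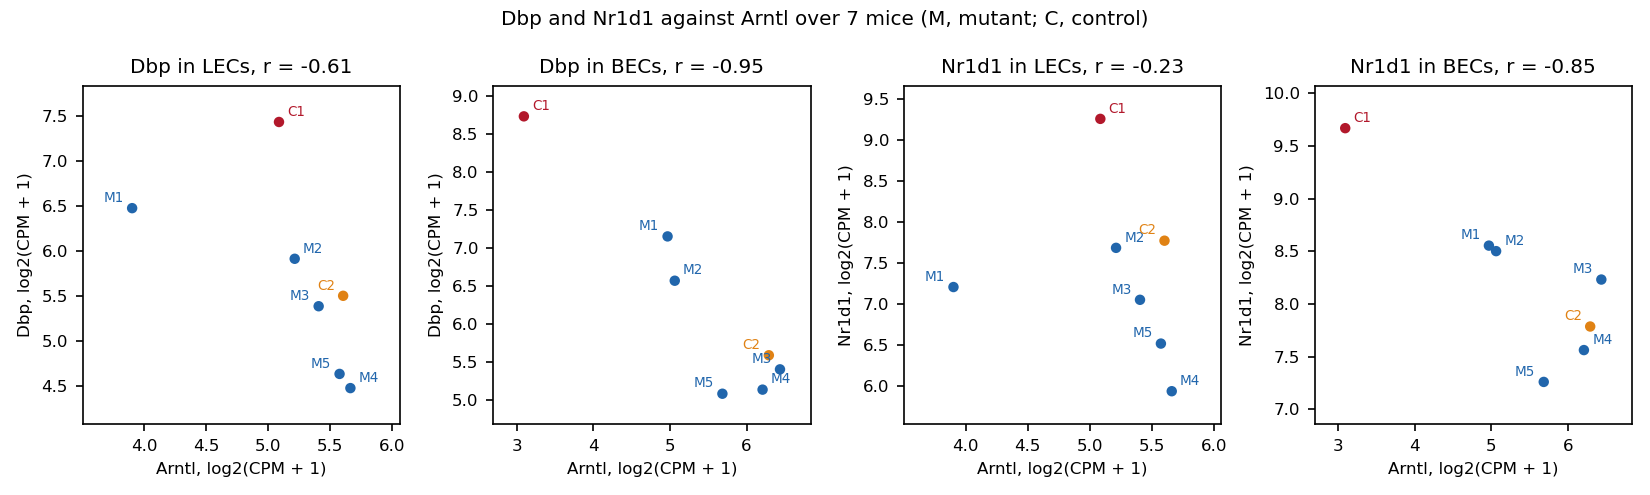
Dbp and Nr1d1 against Arntl within LECs and within BECs, all as log2(CPM + 1), with 1 point a mouse. In BECs the points run from C1 at low Arntl and high Dbp to M3, M4 and C2 at the opposite end (r = -0.95 for Dbp and -0.85 for Nr1d1), and in LECs C1 lies apart from that line (r = -0.61 and -0.23).

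The comparison of mutant with control mice asks whether the Pik3ca mutation went with a different clock gene level. Both controls and mutant 5 were on the plates of the higher numbers and mutants 1 to 4 on those of the lower, so genotype and plate numbers were largely the same split. By edgeR's quasi-likelihood test with Benjamini-Hochberg adjustment, none of the 10 genes was called in LECs, where 546 of 19758 genes (2.76%) were. At an unadjusted p under 0.05 it was 3 of 10 against 20.1% of genes, and by DESeq2 2 of 10 (Nr1d1 and Per3) against 12.6%. Nr1d1 had the lowest fold change in LECs, with a log2 value of mutant minus control of -1.68 (SE 0.48, edgeR adjusted p = 0.0981). Per3 followed at -1.60 (SE 0.39, edgeR adjusted p = 0.0678). Dbp was at -1.20 (SE 0.62), Tef at -0.90 (SE 0.37) and Arntl at -0.04 (SE 0.44). The CPM of mutants and controls did not overlap for 2 of 10 genes, Nr1d1 and Per3, where 25.2% of genes did not overlap.

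In BECs none of the 10 genes was called by edgeR either, where 410 of 19315 genes (2.12%) were. It was 2 of 10 at an unadjusted p under 0.05 against 19.6%, and none by DESeq2 against 11.6%. Per2 had a log2 fold change of -2.28 (SE 0.94, edgeR adjusted p = 0.231), Dbp of -1.72 (SE 0.79, edgeR adjusted p = 0.273) and Per3 of -1.25 (SE 0.48, edgeR adjusted p = 0.206). Arntl was at 0.42 (SE 0.76). The groups overlapped for all 10 genes, where 25.0% of genes did not overlap.

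The direction of these fold changes depended on which control entered. The median over the 10 genes in LECs was -0.70, against -0.01 over all genes, and it was 0.26 without control 1 and -1.40 without control 2. In BECs it was -0.50, against 0.01, and it was 0.68 without control 1, -1.10 without control 2 and -0.81 without mutant 2. With the plate number series as a block it was -1.07 in LECs and -0.82 in BECs. No control was on the plates of the lower numbers, so this block leaves mutant 5 as the only mutant set against the controls. It is thus the same contrast as mutant 5 alone against the controls, which gave -1.06 and -0.81. Without control 1, Tef in BECs went from -0.27 to 1.73 (edgeR adjusted p = 0.0772) and Dbp from -1.72 to 0.62. Without control 2, Arntl in BECs went from 0.42 to 2.90 and Per2 from -2.28 to -3.22 (edgeR adjusted p = 0.0624). Per3 kept a negative value throughout, at -1.17 in LECs without control 1 (edgeR adjusted p = 0.254), and Nr1d1 did so in LECs at -0.66. With 1 control left, that control was assumed to vary as the mutants do.

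Whether the mutant effect differed between LECs and BECs was tested as an interaction with the mouse as a block. None of the 10 genes was called by edgeR, where 42 of 21933 genes (0.191%) were. It was 3 of 10 at an unadjusted p under 0.05 against 11.5%, and 1 of 10 by DESeq2, Nr1d1, against 5.74%. The log2 difference of the effect in LECs minus that in BECs was -0.97 for Nr1d1 (SE 0.26, edgeR adjusted p = 0.209), -1.08 for Tef (edgeR adjusted p = 0.351) and -0.45 for Cry2 (edgeR adjusted p = 0.408).

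Mutants 3 and 5 each had a pair of plates, which gives the spread within a mouse. The median difference between plates of a mouse was 0.44 on the log2 scale in LECs and 0.53 in BECs, and the median SD over mice was 0.71 and 0.86. In 15 of 20 gene and mouse pairs in LECs, and 14 of 20 in BECs, the plates differed by less than the SD over mice. Per1 was the gene that varied most steadily between plates. Its plates held 37.2 and 94.7 CPM in LECs of mutant 3 and 35.8 and 83.8 CPM in BECs, in the same order. In mutant 5 they held 85.8 and 38.6 CPM in LECs and 130.8 and 55.0 CPM in BECs, again in 1 order. All these Per1 gaps, of 1.13 to 1.33 on the log2 scale, were above its SD over mice (0.76 in LECs and 1.04 in BECs). Cry2 plates of mutant 3 held 34.8 and 68.7 CPM in LECs and 56.2 and 119 CPM in BECs, in the same order. Those gaps, of 0.96 and 1.07, were above the SD of Cry2 over mice (0.49 in LECs and 0.57 in BECs). In mutant 5 the Cry2 gap was 0.07 in LECs, below that SD, and 0.74 in BECs, above it. Dbp plates held 53.0 and 26.8 CPM in LECs of mutant 3 and 51.1 and 28.3 CPM in BECs, and in mutant 5 they held 27.5 and 20.4 CPM in LECs and 26.8 and 39.6 CPM in BECs. These gaps, of 0.41 to 0.96 on the log2 scale, were below the SD over mice (1.04 in LECs and 1.35 in BECs), by little in LECs of mutant 3, and in mutant 5 the order of the plates was not the same in the classes.

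The share of cells with at least 1 read was also taken. It depends on the level of a gene too, so it does not separate more cells from more RNA per cell. Each cell was thinned to 50000 reads, and intervals are 95% Wilson intervals that cover counting error only. In BECs a Dbp read was found in 83.6% of cells of control 1 (77.1 to 88.6%, 100% of cells before thinning), and in 13.5% (mutant 5) to 55.2% (mutant 1) of cells of the other mice. In LECs it was 66.1% in control 1 (59.0 to 72.6%, 97.3% before thinning) and 17.7 to 39.7% in the others. Arntl went the other way in BECs, with 6.29% of cells in control 1 (3.45 to 11.2%, 17.6% before thinning) and 14.2 to 30.6% in the others. In LECs Arntl reads were in 10.9% (mutant 1) to 27.0% (mutant 5) of cells, with control 1 at 13.7%. Per2 reads were in 25.2% of BECs and 9.84% of LECs of control 1, and in at most 7.10% and 5.18% in the other mice. Before thinning, Dbp reads were in 25.4 to 72.7% of BECs and 30.2 to 69.0% of LECs of the mice other than control 1. Arntl reads were then in 19.6 to 42.2% of BECs of those mice. Cells of 1 mouse are not replicates, and no test was made on these shares.

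The other genes of the clock were taken as a list of 13: Clock, Npas2, Arntl2, Rora, Rorb, Bhlhe40, Bhlhe41, Nfil3, Hlf, Ciart, Csnk1d, Csnk1e and Fbxl21. None was called between mutants and controls in LECs or in BECs (edgeR), with median log2 fold changes of -0.07 and 0.40. Between the classes 3 of 13 were called, where 26.4% of all genes were, and all 3 were higher in LECs: Csnk1e, a kinase of the PER proteins, by 0.51 on the log2 scale, Bhlhe40, a repressor at E-boxes, by 0.65, and Fbxl21, a ubiquitin ligase subunit for CRY proteins, by 2.09 (edgeR adjusted p = 0.0194, 0.0366 and 0.0417). Between mice 1 of 13 was called, against 2.89% of genes, Rorb, with a span of 5.83 (edgeR adjusted p = 0.0281) at levels of at most 6.51 CPM. Over both classes Rorb was at 1.87 to 6.51 CPM in mutants 1 to 4. It was at 0.09 to 0.85 CPM in mutant 5 and both controls, so its split was also that of the plate numbers.

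Several of these genes nonetheless stood apart in control 1, and no test bears on a single mouse. Ciart, a repressor of CLOCK and BMAL1, was at 46.2 CPM in LECs of control 1 and at 7.04 to 16.3 CPM in the other 6 mice, and at 52.8 CPM in BECs against 2.25 to 18.6 CPM. Nfil3, which competes with Dbp for D-boxes, was at 6.19 CPM in BECs of control 1 and at 31.7 to 75.5 CPM in the others, but at 77.9 CPM in LECs of both controls. Hlf, the third PAR bZIP gene, was highest in control 1 at 8.55 CPM in LECs and 24.3 CPM in BECs. Clock varied little, from 33.8 to 48.5 CPM in LECs and 45.2 to 96.6 CPM in BECs.

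Of 8 known clock-controlled genes (Usp2, Wee1, Tspan4, Lonrf3, Por, Pdk4, Cdkn1a and Nampt), none was called between mutants and controls in either class, and none between mice. Of all genes, 2.76% were called between mutants and controls in LECs, 2.12% in BECs and 2.89% between mice. Between LECs and BECs 3 of the 8 were called, 2 higher and 1 lower in LECs, where 26.4% of all genes were called. Of 8 glucocorticoid-responsive genes, Klf9 was lower in mutant LECs (log2 -1.30, edgeR adjusted p = 0.0470) and Mt1 in mutant BECs (log2 -1.55, edgeR adjusted p = 0.0370). Tsc22d3, a glucocorticoid target, differed between mice (edgeR adjusted p = 0.0197). Control 1 was the highest mouse for Tsc22d3, Klf9 and Klf15 in both classes, and for Zbtb16 in LECs. Klf15 in LECs was at 26.8 CPM in control 1 and at most 1.80 CPM in the other mice. Fkbp5, Sgk1, Mt1 and Mt2 were highest in other mice in both classes, as was Zbtb16 in BECs. Of 14 immediate-early and dissociation genes 5 were lower in mutant LECs and 4 in mutant BECs, where 0.805% and 0.611% of all genes were called lower. All 7 cell-cycle genes listed were higher in mutant LECs and 3 of 7 in mutant BECs, where 1.96% and 1.51% were called higher. The immediate-early genes summed to 806 to 1869 CPM in mutant LECs against 2634 to 4105 CPM in control LECs, and 1741 to 3012 CPM against 5286 to 5388 CPM in BECs. Fibroblast markers (Col1a1, Col3a1, Pdgfra and Dcn) summed to 15.8 to 57.8 CPM in mutant BECs and 484 to 625 CPM in control BECs, and mural cell markers to 33.8 to 199.6 CPM and 294 to 640.0 CPM. The part of these in the mutant and control levels of the clock genes was not tested.

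The genes whose pattern over the 7 mice was most like that of Dbp in both classes were Sphk2 (r = 0.932 in LECs and 0.967 in BECs), Tspan4 (0.910 and 0.901), Epas1 (0.896 and 0.931), Ezh1 (0.926 and 0.866) and Arhgap12 (0.868 and 0.945), among 9222 genes. Sphk2 shares exon bases with Dbp. The most opposite were Cwc27 (-0.960 and -0.910) and Litaf (-0.944 and -0.901). Most like Arntl was Ptpn9 (0.797 and 0.788), and most opposite Arhgap31 (-0.825 and -0.861). These are the extremes of many genes over 7 points that share libraries, and are a description only.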

How the data were processed

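The authors sorted single cells into plates of 384 wells, made Smart-Seq2 libraries, aligned reads with TopHat2 2.1.1 to GRCm38 plus the chicken PIK3CA sequence of the transgene, removed duplicate reads with SAMtools 0.1.18, and deposited the raw counts per gene and cell that featureCounts (Subread) gave. Each of the 9 count tables holds 46609 rows, of which 92 are ERCC spike-ins, left out of library sizes and tests. GENCODE vM21 named 46005 of 46517 Ensembl genes (98.9%).

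Cells with fewer than 200 genes, fewer than 50000 reads or over 10% mitochondrial reads were left out, leaving 332 to 375 cells a plate. Of these, 109 to 152 cells a plate reached 300 CPM, the limit for a class, in both marker sets. Such cells were placed by the higher sum. Doublets were not called. Groups came from the labels. Replicates were single mice, plates of a mouse were summed, and a control with no count table was not analysed here. Counts summed per mouse and class were tested in edgeR 4.0.16 (quasi-likelihood test, filterByExpr, TMM) with Benjamini-Hochberg adjustment over all genes tested, at a threshold of 0.05. DESeq2 1.42.0 was an alternative. Correlations used log2(CPM + 1) with a pseudocount of 1 and an exact two-sided permutation over 5040 pairings, whose smallest possible p is 0.000198. Plates held 99738886 to 151102969 reads, with a median of 219487 to 424655 reads a cell. Reads carry no molecular identifiers and are not independent molecules.

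All 10 clock genes were named by rule, and of other lists the 5 genes with the smallest p, beside counts of all members. Other genes named, and levels of control 1, were chosen after their values were seen. The genes and lists were chosen with earlier results of these data known. Some genes of the fixed lists are not reported here, and the counts leave them out. Alternatives were another normalisation, no filter on low counts, a stricter choice of cells, no cycling cells, first plates only, cells thinned to equal reads, LECs low in Ptx3, blocks by replicate or plate number, and leaving out each mouse. Correlations without control 1 were added after seeing the data. In simulated data with 200 genes changed 8-fold, edgeR recovered 99% with 5 false calls for mutant against control in LECs (19758 genes), and 86.5% with 2 false calls for differences between mice (17593 genes). The changed genes were drawn from the more abundant ones. Recovery of smaller changes or of scarcer genes was not simulated.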

Additional observations from a re-analysis of the deposited data

Results flagged for a closer look

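Per3 in LECs of the 5 mutants had a sample far from the others. Mutant 1 held 44.8 CPM and the next highest mutant 22.5 CPM, a gap of 0.805 of the group's whole range, where Dixon's critical value for 5 samples is 0.71. The criterion was applied to 20 groups, the 10 clock genes in mutant LECs and in mutant BECs, and chance gives about 1 in 20.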

How the results depend on the processing

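Of the comparisons' counts and medians, 176 alternative values stayed within 1.5 times or within the spread, 71 moved and 2 changed sign. Of single clock gene values, 702 kept direction and side of the threshold, 21 gained and 34 lost a call, most of these between mice, and 35 changed sign. The causes were not tested. For mutant against control in LECs, the genes called (546) became 2490 with DESeq2, 101 without cycling cells, 9 in LECs with at most 1 Ptx3 read, 178 with the plate number series as a block, 3 with mutant 5 alone against the controls, and 153 to 546 when 1 mouse was left out. Of the clock genes 2 were called with DESeq2, 1 with cells thinned to equal reads, and 0 to 1 with 1 mouse left out. In BECs the genes called (410) became 2238 with DESeq2, 54 with the plate number series as a block, 0 with mutant 5 alone (1090 at an unadjusted p under 0.05), and 159 to 586 with 1 mouse left out. For the difference of the mutant effect the genes called (42) became 1258 with DESeq2, which called 1 clock gene, 93 with the stricter choice of cells, 22 without cycling cells, and 0 to 21 with 1 mouse left out (0 without control 2, where 2858 had an unadjusted p under 0.05). Between mice the genes called (508) became 4338 with DESeq2, 169 with no filter on low counts, 85 with the stricter choice of cells, 274 without cycling cells, 786 with thinned cells, and 46 to 656 with 1 mouse left out. The clock genes called there became 3 with no filter, 2 with the stricter choice of cells and 1 to 6 with 1 mouse left out. Within the mutants the genes called (5) became 1633 with DESeq2, 3 with no filter, 1 with the stricter choice of cells, 2 without cycling cells, 2 with first plates only, 14 with thinned cells and 0 to 2 with 1 mouse left out (0 without mutant 2, where 2055 had an unadjusted p under 0.05). The clock genes called there became 7 with DESeq2 and 1 with thinned cells. Between LECs and BECs 3 to 5 clock genes were called with 1 mouse left out.

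With a replicate block for the mutants and controls that share numbers 1 and 2, 3 genes were called in LECs and 0 in BECs (2710 at an unadjusted p under 0.05), and the median over clock genes was -0.37 and -0.070. The log2 fold change changed sign in LECs for Nr1d2 (0.082) and Per2 (0.092) and in BECs for Tef (0.58), Per1 (0.51) and Cry2 (0.24). Deviations of same-numbered mice correlated at -0.04 to 0.09, so the numbers are not taken to pair the mice.

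Arntl in LECs, at -0.04, became 0.019 with no filter, 0.15 with the stricter choice of cells, 0.036 without cycling cells, 0.26 with the plate number series as a block and 0.27 with mutant 5 alone. The plate number block and mutant 5 alone are the same contrast. Between LECs and BECs, Per1 became 0.012 with the stricter choice of cells and 0.026 without cycling cells, and Cry1 0.11 with the stricter choice. Leaving out 1 mouse at a time, the median over clock genes ranged from -1.40 to 0.26 in LECs and from -1.10 to 0.68 in BECs. The ranges in LECs were -1.23 to 0.82 for Nr1d2, -1.88 to 0.18 for Dbp, -1.44 to 0.0016 for Tef, -1.35 to 0.73 for Per1, -1.46 to 0.82 for Per2, -0.88 to 0.33 for Cry1, -1.05 to 0.38 for Cry2 and -0.22 to 0.19 for Arntl. In BECs they were -1.50 to 0.40 for Nr1d1, -1.10 to 0.044 for Nr1d2, -2.57 to 0.62 for Dbp, -1.07 to 1.73 for Tef, -1.11 to 1.58 for Per1, -3.22 to 1.63 for Per2, -0.98 to 0.74 for Cry1, -0.87 to 1.02 for Cry2 and -0.44 to 2.90 for Arntl. Between LECs and BECs they were -0.18 to 0.056 for Per1 and -0.13 to 0.11 for Cry1. The median r between classes (0.829) was 0.628 without the 2 farthest mice, and that against Arntl in BECs (-0.848) was -0.712 without the 2 farthest mice and -0.657 without control 1. What limits these values is 2 controls that differ in breeding line and treatment, 1 mouse each.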
